A study of Mus musculus with 10 samples.

Results

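Binding of RBFOX2 to RNA was compared gene by gene between a tagged and an untagged iCLIP library of mouse embryonic stem cells. The genes described are those with at least 1 enriched RBFOX2 cluster lying wholly inside the locus that the expression table gives for them. They number 6984 of the 7740 gene IDs that carried clusters, and the expression table holds 26857 entries. The cells were of the V6.5 line. For iCLIP, which maps RNA crosslinked by ultraviolet light to a protein in living cells, they carried a lentivirus with doxycycline-inducible human RBFOX2, FLAG-HA-tagged in FHFOX2 cells and untagged in UntagFOX2 cells. The cells were selected in hygromycin at 150 µg/ml for 6 days, induced with doxycycline at 1 µg/ml for 24 h and irradiated at 150 mJ/cm2. RNA fragments were recovered from both by serial FLAG and HA immunoprecipitation, which has no epitope to bind in UntagFOX2 cells. For RNA-seq, other cells of the same line were infected with a lentivirus for 1 of 4 hairpins, shFox2-1 and shFox2-2 against Rbfox2, and shLuc (luciferase) and shGFP (GFP) as controls, then selected for 3 days (puromycin, 1 µg/ml) and left unselected for 24 h. Each hairpin was used in biological duplicate, and the deposited expression table pools the 2 libraries of a hairpin into 1 value.

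RBFOX2 is an RNA-binding protein with a single RNA recognition motif that reads the sequence UGCAUG, or its shorter core GCAUG, in introns and exons. It is best known as a splicing regulator: bound downstream of an alternative exon it tends to favour inclusion, and bound upstream it tends to favour skipping. Most of its binding in the nucleus is to introns of unspliced transcripts, so a long gene offers more RNA to bind than its mRNA shows. The iCLIP experiment used induced human protein in cells that kept their own Rbfox2 gene, so the clusters show binding of a supplied protein.

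The list contained 35639 clusters, each with its coverage in the tagged library, its q-value and its fold over the untagged one. There was 1 library on each side, so the cluster values have no replicate and were given no test here, and the depth of both libraries is unknown. The untagged library was amplified for 7 PCR cycles beyond the 16 cycles given to both. Cluster coverage ran from 148 to 202869 with a median of 374, the fold was at least 1.05, and the highest q-value was 0.0442. In 16000 clusters (44.9%) the untagged library had no coverage at all, and the fold was given as infinite. The embryonic stem cell label was matched by its markers, since all 8 examined were present at 32.5 to 452 FPKM in the control hairpins. Markers of fibroblasts, trophoblast and endoderm were at or below 2.14 FPKM. Of the neuronal markers found, Syt1 was at 0 and Tubb3 was the highest at 29.7 FPKM.

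Most genes carried few binding regions and a small number carried very many. Overlapping or touching clusters of a gene were merged into regions, and 30995 clusters inside the loci gave 29622 regions. The number per gene had a median of 3, quartiles of 1 and 5, and a maximum of 101. A single region was found in 2140 genes (30.6%), and 107 genes had 21 or more. The 70 genes that make up the top 1% held 8.83% of all regions. The same clusters covered few bases: the median gene had 319 bases under clusters in a locus with a median length of 36.2 kb.

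Exoc4, which encodes a subunit of the vesicle-tethering exocyst, had the most regions, with 101 in a locus of 723.794 kb on mm9 chromosome 6 (33199149 to 33922943). Smyd3, a lysine methyltransferase gene, had 100 regions built from 136 clusters over 562.973 kb. Wwox, a WW-domain oxidoreductase gene, had 98 regions over 913.013 kb. These 3 genes stood well above the fourth, Rad51b, a homologous recombination gene with 66 regions. The next genes by this count were Magi1 (a junctional scaffold, 62 regions), Arl15 (an ARF-like GTPase, 61), Etl4 (60) and Ptprg (a receptor tyrosine phosphatase, 59). Ranbp17, a nuclear transport receptor gene, had 52 regions and Agap1, an Arf GTPase-activating protein gene, had 50. Rbfox2 itself, listed in the table as Rbm9 (mm9 chromosome 15, 76912768 to 77137358), tied with Agap1 at 50. The 11 loci measured between 224.590 kb and 913.013 kb, far above the median of 36.2 kb.

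Spacing was examined in the 3 genes with most regions and in Rbfox2. In Exoc4 the median gap between neighbouring regions was 2640 bases, and 30 of its 100 gaps were under 1 kb. In Smyd3 the median gap was 1376 bases, and 43 of 99 gaps were under 1 kb. In Wwox it was 3042 bases, with 22 of 97 gaps under 1 kb, and in Rbfox2 it was 2173 bases, with 18 of 49 gaps under 1 kb. Over all genes with several regions the median of 22638 gaps was 2954 bases, and 32.2% were under 1 kb.

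The genes with the highest summed coverage had fewer regions than those named so far, apart from Smyd3. Enah, which encodes an actin regulator of the Ena/VASP family, had the highest summed coverage, 677160, from 60 clusters in only 16 regions. Dgcr8, the partner of Drosha in primary microRNA processing, followed with 558314 from 85 clusters in 9 regions, and the transcription factor gene Deaf1 with 541116 from 38 clusters in 6 regions. Pask, a PAS-domain kinase gene, had 443092 from 76 clusters in 5 regions. Smyd3 came next with 410273, and is the one gene in the top 10 of both rankings. Rbpj, whose protein binds DNA and carries the Notch signal to its targets, had 401018 from 78 clusters in 12 regions. Uri1, a prefoldin-like chaperone gene, had 305170, of which a single cluster of 2140 bases (mm9 chromosome 7, 38792124 to 38794263) gave 202869. That cluster has the highest coverage of the whole list. Ppp1r12b (276179), Zfp865 (253226) and Prdm2 (222692) completed the 10. Of the 100 genes with most regions, 20 were among the 100 with the highest summed coverage.

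**Figure D1:**
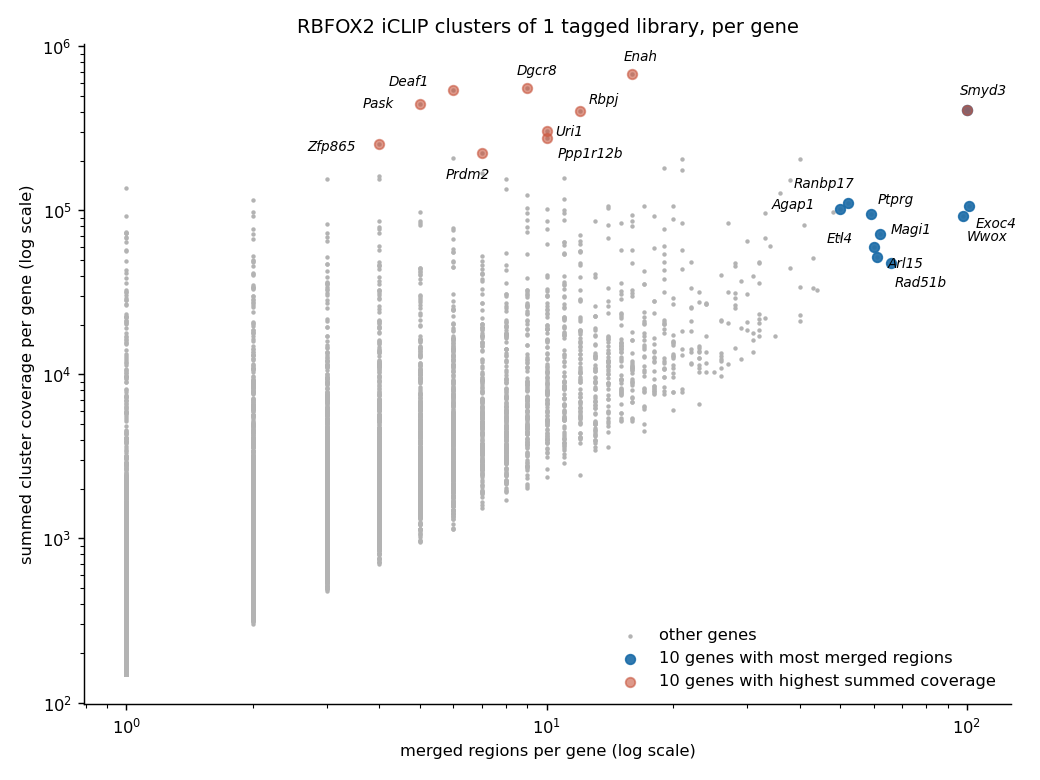
Each point is 1 gene, placed by its number of merged regions (x axis, log scale) and the summed coverage of its clusters in the tagged library (y axis, log scale). The 10 genes with most regions lie to the right, between 50 and 101 regions, the 10 with highest coverage lie at the top between 222692 and 677160, and Smyd3 is in both groups.

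Summing coverage counted the same stretch several times where clusters were stacked. In Rbpj, 66 of 78 clusters lay in 1 region of 2078 bases (mm9 chromosome 5, 53973483 to 53975560). In Pask, 40 clusters lay in a region of 1274 bases on chromosome 1 (95215275 to 95216548) and 29 in another of 869 bases (95213911 to 95214779). Dgcr8 had 33 clusters in 1107 bases of chromosome 16 (18285322 to 18286428), and Enah had 38 in 1233 bases of chromosome 1 (183861458 to 183862690). Such stacking was uncommon: 540 genes (7.73%) had more clusters than regions, and 11 had at least 5 clusters per region. When each region was given the highest coverage of its clusters, 3 of the 10 genes stayed in the top 10, and the leaders were Smyd3, Uri1, Gli2 (a Hedgehog transcription factor gene) and Enah. The 10 genes with the highest sum held 9.58% of summed coverage but 2.86% of the coverage counted by region.

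Within a gene, coverage was uneven. In genes with 2 regions the higher one held a median of 66.3% of the gene's coverage counted by region (quartiles 57.3% and 78.9%, 1314 genes). In the 107 genes with 21 or more regions the highest region held a median of 22.9% (quartiles 16.3% and 32.5%), against 3.57% for equal regions at the median number. Magi1 had 44.6% in 1 of 62 regions (mm9 chromosome 6, 94203882 to 94205115), and Ptprg had 64.4% in 1 of 59 (chromosome 14, 12490868 to 12491890). In Exoc4 the highest region held 12.2%, and in Rbfox2 it held 18.0% (chromosome 15, 76935650 to 76936255). Among these 4 genes the share of the highest region was thus largest in Ptprg and smallest in Exoc4.

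In most genes the untagged library had no coverage under many of the clusters. The median fold of a gene is called infinite where clusters without untagged coverage were at least as many as those with it, and this held for 3840 genes (55.0%). All clusters lacked untagged coverage in 1697 genes and none did in 1659. Among the 2065 genes with 5 or more clusters, 965 had an infinite median fold, 1938 (93.8%) mixed clusters with and without untagged coverage, and 19 had a median fold below 2. In 37 of the 2065 every cluster lacked it. The 10 of these with the highest coverage, an order chosen among tied genes after their values had been seen, were Wdr92, Gmds, Tmtc1, Coro1c, Ppfibp1, Prkca, Zfp236, Ift172, Vcan and Lifr. Coro1c, an actin-binding coronin gene, had 9 such clusters with a summed coverage of 4072. Lifr, the receptor for the leukaemia inhibitory factor on which these cells depend, had 5 with 2109. None of the 10 exceeded a summed coverage of 5014, so all lay far below the genes that lead by coverage.

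An infinite fold went with low coverage. Untagged coverage was missing in 73.4% of the 5046 clusters with a tagged coverage under 200, in 33.0% of the 5499 between 500 and 1000, and in 1 of the 1580 clusters at 5000 or more. The median of the finite folds moved the other way, being 1.66 in the lowest class and 7.38 in the highest. The fold contains the tagged coverage that defines the classes, so this rise is in part built in. Genes with high mRNA levels had fewer infinite median folds, 71.6% of those at 1 to 2 control FPKM and 24.1% of those at 100 FPKM or more. Across 6329 genes the Spearman correlation of median fold with control FPKM was -0.26. The genes share a library pair and its depth, and the part of depth in this relation was not tested.

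**Figure D2:**
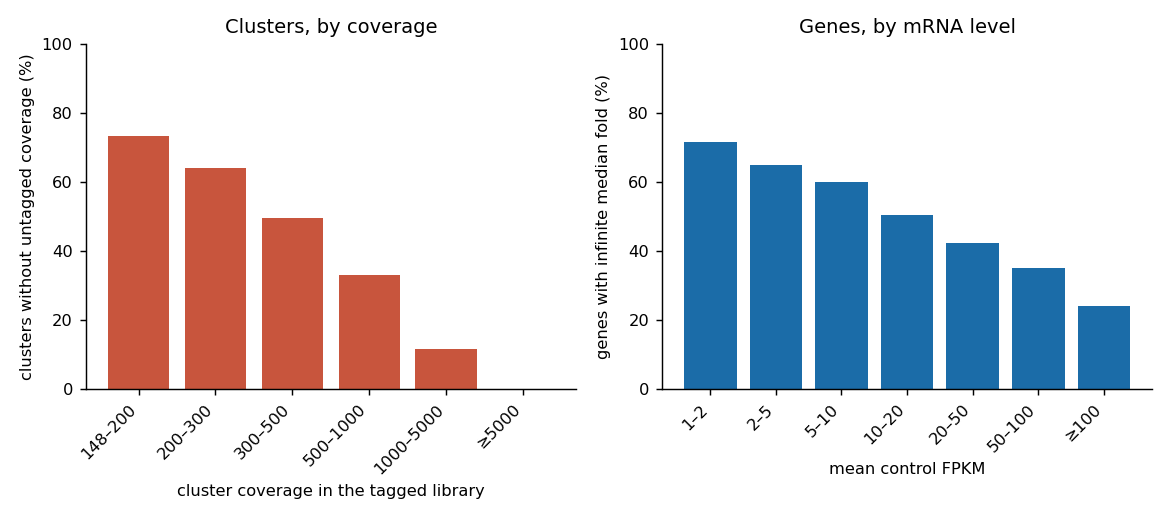
Left, the percent of clusters without coverage in the untagged library (y axis) by cluster coverage in the tagged library (x axis, 6 classes). Right, the percent of genes whose median fold is infinite (y axis) by mean FPKM of shLuc and shGFP (x axis, 7 classes). Both shares decline across the classes, to 0.0633% and 24.1% in the last.

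Genes with clusters were longer than genes without, and their mRNAs were more abundant. Of 11753 table entries that could be matched to a gene ID and stood at 1 FPKM or more in the controls, 6329 (53.9%) had a cluster. The median locus was 34.2 kb for genes with clusters and 9.29 kb for those without, and the median control level was 10.3 FPKM for genes with clusters and 5.604 FPKM for those without. The share with a cluster was 12.03% for loci under 5 kb (95% Clopper-Pearson interval 10.7% to 13.5%, counting error only). It was 69.0% at 20 to 50 kb (67.3% to 70.6%) and 83.4% at 100 to 200 kb (80.7% to 85.8%). The median number of regions in genes with clusters was 1 under 5 kb, 3 at 20 to 50 kb and 10 at 200 kb or more.

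Against mRNA level the share climbed and then dropped. It was 28.4% at 1 to 2 FPKM, 66.3% at 20 to 50 FPKM and 41.3% at 100 FPKM or more. Length moved with level, and within loci under 20 kb the share was 17.3% at 1 to 5 FPKM, 36.7% at 5 to 20 FPKM and 44.8% at 20 FPKM or more. In loci of 20 to 100 kb it was 54.3%, 79.9% and 86.9% over the same classes. In loci of 100 kb or more it was 80.5%, 91.0% and 69.4%. For entries with a locus of their own, a split made after the data were seen, the values in these longest loci were 86.7%, 98.3% and 94.7%. Such shared loci were listed for 1072 of the 6984 genes, and lengths and densities of those genes include neighbouring sequence.

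**Figure D3:**
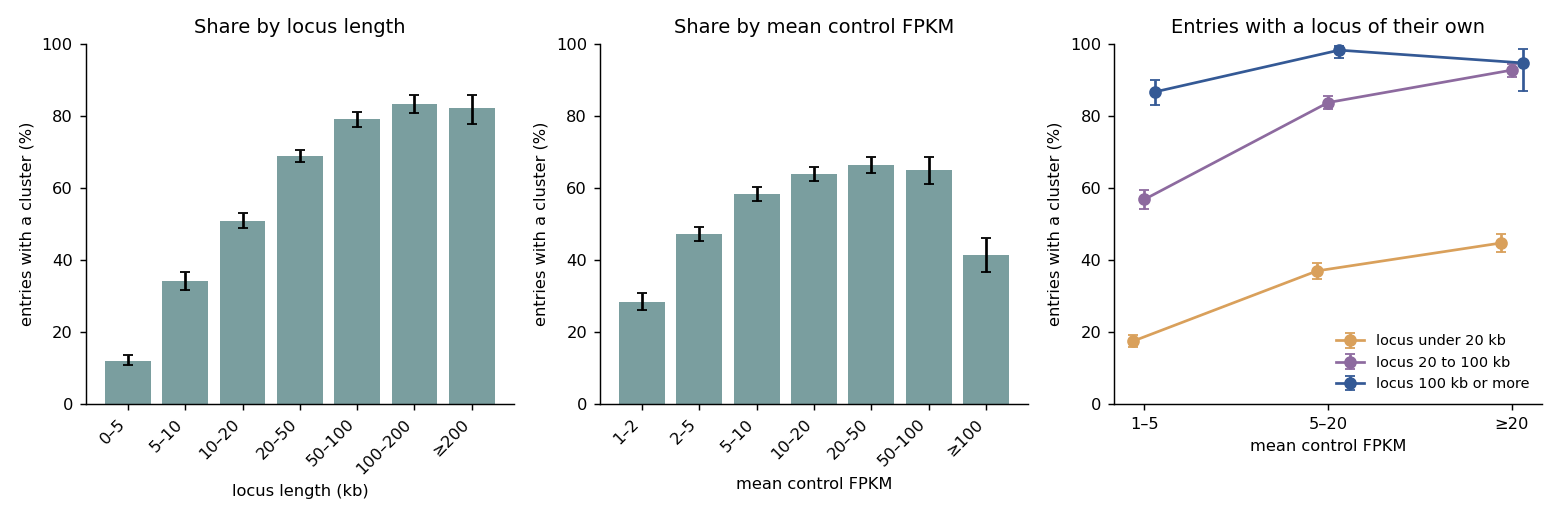
Percent of matched entries at 1 control FPKM or more that had an RBFOX2 cluster (y axes), by locus length in kb (left), by mean control FPKM (middle), and by control FPKM within 3 length classes for entries with a locus of their own (right). Bars and points are shares with 95% Clopper-Pearson intervals, and in the right panel each longer class lies above the shorter one, with the intervals of the longer pair overlapping at 20 FPKM or more.

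Across the 6329 genes the Spearman correlation of region number with locus length was 0.55, and with control FPKM it was 0.12. Region number per kb correlated at -0.57 with length, which it contains, and at 0.44 with control FPKM. None of the 100 genes with most regions per kb was among the 100 with most regions or the 100 with highest coverage, which describes the lists and is no test of a relation.

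The densest binding by length was found in short genes, at levels between 3.52 and 158 control FPKM. Among the 3530 genes with 3 or more regions, Rpl9, which encodes a protein of the large ribosomal subunit, was densest at 1.14 regions per kb, with 3 regions in 2.628 kb and 55.5 FPKM. Vamp2, a vesicle SNARE gene, had 4 regions in 3.854 kb (1.04 per kb). Tprgl (0.938), Cep55 (an abscission gene, 0.888), Rpl11 (0.876), Pole4 (a DNA polymerase epsilon subunit gene, 0.812), Mrps24 (0.807), Morf4l2 (0.795), Serp1 (0.794) and Polr2g (0.737) followed. Each of these 10 loci measured 7.546 kb or less and held 3 to 6 regions, so a single region moves the density by a large fraction. Ribosomal protein genes have many processed copies in the genome, and how reads with several matches were treated is not given in the sources used here.

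Regions per control FPKM were highest in long genes, but this ratio is not divided by locus length, so long loci are favoured. For matched genes with clusters at 1 control FPKM or more, its median was 0.056 under 5 kb and 2.03 at 200 kb or more. Median regions per kb went the other way, from 0.336 to 0.0324 in the same classes. The ranking by this ratio is therefore no measure of density apart from length. Among the 2614 genes with 3 or more regions and at least 5 control FPKM, Agap1 had 8.21 regions per FPKM and Exoc4 8.14. Gli2 followed with 7.73, Ptprg with 7.15 and Magi1 with 6.90. Btbd11 had 6.13 and Qk, which encodes the RNA-binding splicing regulator Quaking, had 5.25. Svil (supervillin, an actin-binding protein gene) had 5.09 and Dock1 (an exchange factor gene for the GTPase Rac) had 5.06. These 9 genes lay between 5.14 and 12.4 control FPKM, near the lower bound of 5 FPKM. With no level bound the same ratio was far higher in weakly expressed genes, 37.6 in Rad51b at 1.76 FPKM and 30.3 in Wwox at 3.23 FPKM.

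Clusters were also found in genes with little stable mRNA. In 572 genes the controls averaged below 1 FPKM, and in 41 of them both were at 0. These genes had a median of 1 region and a median locus of 69.9 kb, against 34.4 kb for the genes at 1 FPKM or more. Ppp1r12b, a gene for a myosin phosphatase targeting subunit, stood at 0.808 FPKM, and 21 of its 30 clusters lay in 987 bases of chromosome 1 (136695578 to 136696564).

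Genes were then read by role, using 16 lists. The share of a list with clusters is set beside the 53.9% of all matched entries, and beside its median length, since lists differ in both length and level. The lists of RNA-binding proteins had shares above that of all matched entries. Clusters were found in 10 of 12 genes of SR proteins, which recruit the splicing machinery to exons, at a median locus of only 6.65 kb and a median level of 59.8 FPKM. For matched entries under 20 kb at 20 FPKM or more the share was 44.8%. Tra2a had 9 regions in 20.132 kb, Srsf10 had 9 in 13.817 kb and Srsf11 had 7, while Srsf1 and Srsf4 had no cluster inside their loci. The hnRNP list, of packaging and splicing proteins, had clusters in 26 of 28 genes (median 3 regions, 20.3 kb, 84.3 FPKM), led by Hnrnpul1 with 14 regions then Hnrnpm, Hnrnpd and Syncrip with 10 each. Of the other splicing regulators, 37 of 38 had clusters, with a median of 4 regions, 31.0 kb and 34.3 FPKM. For matched entries of 20 to 100 kb at 20 FPKM or more, the class of the last 2 lists by their medians, the share was 86.9%, and it was 92.8% for those with a locus of their own. The hnRNP median lies just above the 20 kb edge, under which the share was 44.8%. Among the other splicing regulators Qk had 29 regions, Luc7l2, a gene related to a U1 snRNP component, had 16, and Rbm25 had 15.

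The splicing machinery itself and the pathways that act on the spliced mRNA carried clusters as well. Of the spliceosome core genes 24 of 32 had clusters, led by Eftud2, a U5 snRNP GTPase gene with 14 regions. Of the genes of nonsense-mediated decay and the exon junction complex 13 of 16 had clusters, among them Smg6 with 28 regions and Smg1 with 13. Smg6 encodes the endonuclease of this decay pathway, and its locus of 267.180 kb is shared by 5 table entries. In the microRNA pathway 13 of 14 genes had clusters, led by Tnrc6c (a silencing effector gene, 19 regions), with Dgcr8 at 9 and Tnrc6a at 8. Translation factors had clusters in 21 of 24 genes, of which Eif4g3 had 21 regions from 38 clusters. The medians were 19.3 kb and 38.8 FPKM in the spliceosome list and 17.3 kb and 92.1 FPKM in the translation list. Under 20 kb at 20 FPKM or more, the class of both by their medians, 44.8% of matched entries had clusters. The spliceosome median lies just under the 20 kb edge, and at 20 to 100 kb and the same level the share was 86.9%. Genes of that list lie in both classes, so neither share is a background for the whole list. Medians were 22.3 kb and 16.9 FPKM in the decay list and 58.7 kb and 11.036 FPKM in the microRNA list. In their class, 20 to 100 kb at 5 to 20 FPKM, the share was 79.9%, and 83.7% with a locus of their own.

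The lists of long genes, for the cytoskeleton, channels and chromatin, also had high shares. All 28 measured genes of actin and adhesion had clusters, with a median of 8 regions at a median locus of 71.7 kb. Dst, a cytoskeletal linker gene, had 38 regions and Pard3, a polarity gene, had 33. Macf1, also a linker, had 34 but a failed status in the expression table, so it is not among the 28. All 10 measured ankyrin and ion channel genes had clusters (median 10 regions, 97.1 kb), although their median level was 5.21 FPKM. Ank3 had 16 regions and Cacna1a, a calcium channel gene, had 14. The scaffold gene Dlg1 of the same list had 23, again with a failed status. Among chromatin genes 30 of 32 had clusters, led by Jarid2, a Polycomb partner gene, with 40 regions, and Atrx had 19. Dnmt3a and Dnmt3b had no cluster inside their loci. Median levels were 39.2 FPKM in the actin list and 30.4 FPKM in the chromatin list, whose median locus was 67.1 kb. For matched entries of 20 to 100 kb at 20 FPKM or more the share was 86.9%, and 92.8% with a locus of their own. In the class of the channel list by its medians, 20 to 100 kb at 5 to 20 FPKM, those shares were 79.9% and 83.7%. Both medians of that list lie near an edge of the class. At 100 kb or more and the same level the shares were 91.0% and 98.3%, and at 20 to 100 kb and 1 to 5 FPKM they were 54.3% and 56.8%. The part of length and level in the list shares was not tested.

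The lists of housekeeping, pluripotency and noncoding genes had shares from 22.2% to 75%. Those of metabolic enzymes, pluripotency and respiratory chain genes lay above the 53.9% of all matched entries. The highest, that of metabolic enzymes, equalled the 75% of the spliceosome core. Cytosolic ribosomal protein genes had clusters in 32 of 60 cases at a median locus of 2.97 kb and 58.3 FPKM, with at most 3 regions in any gene. The share for all matched entries was 12.03% under 5 kb, and 44.8% under 20 kb at 20 FPKM or more. Respiratory chain genes had clusters in 19 of 32 cases, led by Atp5c1, an ATP synthase subunit gene with 6 regions. Metabolic enzyme genes had clusters in 18 of 24 cases, led by Pfkp (a phosphofructokinase gene, 14 regions). Pluripotency genes had clusters in 17 of 25 cases. In that list Esrrb had 22 regions, Tfcp2l1 had 15 and Nr5a2 had 10, while Pou5f1, Sox2 and Klf4 had none. Of 9 measured noncoding and snoRNA host transcripts 2 had clusters, Meg3 with 13 regions and Gas5 with 1. Median loci and levels were 9.29 kb and 47.3 FPKM for respiratory chain genes and 16.3 kb and 75.2 FPKM for metabolic enzyme genes. They were 10.6 kb and 26.4 FPKM for pluripotency genes, and all of these lists fall in the class with the 44.8% share. Noncoding transcripts, at 2.312 kb and 12.6 FPKM, fall under 20 kb at 5 to 20 FPKM, where the share was 36.7%.

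**Figure D4:**
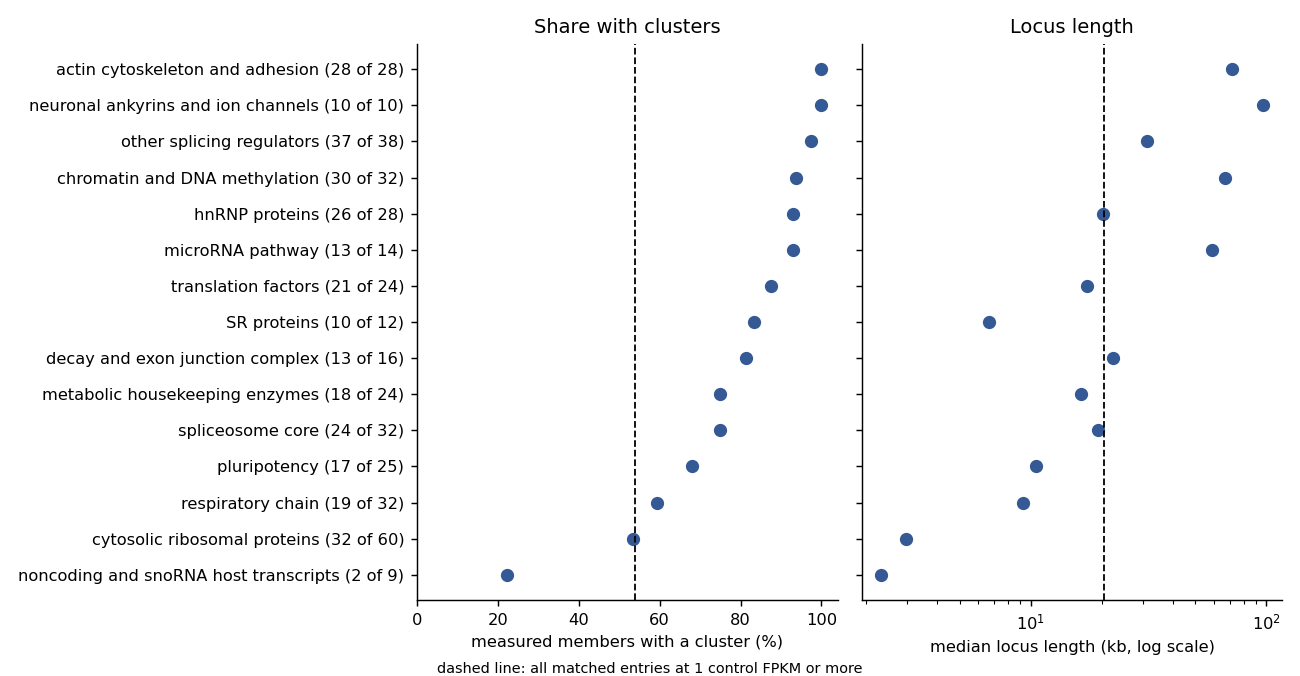
Left, the percent of measured genes with an RBFOX2 cluster in each of 15 lists (number with clusters of number measured beside the name). Right, the median locus length of the same lists in kb (log scale). The dashed lines mark all matched entries at 1 control FPKM or more, 53.9% on the left, and 13 of the 15 lists lie to the right of it.

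The mRNA levels of the bound genes were then followed in the Rbfox2 knockdown, a measure that the choice of genes did not use. Rbfox2 itself stood at 8.56 FPKM in shFox2-1 (deposited interval 7.14 to 9.98) and 7.21 FPKM in shFox2-2 (5.59 to 8.82), against 24.7 FPKM in shLuc (21.9 to 27.4) and 23.3 FPKM in shGFP (20.6 to 26.0). Both knockdown intervals lie below both control intervals. This is a log2 fold change of -1.496 (SE 0.14, limma adjusted p 0.913). No gene with clusters passed an adjusted p of 0.05, 0 of 6873 tested, and neither did any of the 20281 entries (0%), so this test with 2 values on each side did not call even the targeted gene. An unadjusted p under 0.05 was found for 239 of the 6873 and for 908 of the 20281 (4.48%). Since duplicates are pooled, these p-values rest on the spread from hairpin to hairpin and not from culture to culture. In these bulk libraries, fewer cells of a type and less RNA per cell cannot be told apart.

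As a group the bound genes did not move far. The median log2 fold change was 0.00 over the bound genes tested and -0.00 over all entries tested. The hairpins differed: on the log2 scale bound genes at a mean of 1 FPKM or more had a median of 0.11 in shFox2-1 and -0.10 in shFox2-2, beside 0.07 and -0.09 over all entries at that level. Medians by region number were -0.02 for entries with none, -0.01 with 1, 0.02 with 6 to 10, 0.04 with 11 to 20 and 0.03 with 21 or more regions. The interquartile range at 11 to 20 regions was -0.06 to 0.14. By hairpin, the medians at none, 11 to 20 and 21 or more regions were 0.03, 0.17 and 0.15 in shFox2-1, and -0.08, -0.09 and -0.11 in shFox2-2. Median mRNA level moved with region number too, 5.63 FPKM at none and 13.4 FPKM at 11 to 20 regions, as did length, and their part was not tested.

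A gene is called separated when the deposited FPKM intervals of both knockdown hairpins lie above, or both below, those of both control hairpins. This held for 31 of 6328 bound genes with a mean of 1 FPKM or more, 21 higher and 10 lower, beside 37 of 12632 entries (0.293%), of which 22 were higher (0.174%) and 15 lower (0.119%). Intervals are narrower for abundant mRNAs, and at a mean of 20 FPKM or more 21 of 1830 bound genes (1.15%) and 4 of 1294 other entries (0.309%) were separated. After the hairpins had been centred on the median gene the split was 28 higher and 6 lower, of which 12 and 6 were the same genes. Leaving out a hairpin drops a condition, so the count can only grow, and all 21 and 10 genes were kept each time. It was 518 higher and 138 lower without shFox2-2, 37 and 203 without shFox2-1, 28 and 45 without shLuc, and 62 and 24 without shGFP.

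Among the separated genes with higher mRNA, Wdr35, an intraflagellar transport gene with 6 regions, had 27.6 and 24.0 FPKM in shFox2-1 and shFox2-2, against 16.6 and 18.0 FPKM in shLuc and shGFP. Rbpj, with the stacked region described above, had 58.4 and 41.0 FPKM in shFox2-1 and shFox2-2, against 33.6 and 33.5 FPKM in shLuc and shGFP. The level of Rbpj in shFox2-1 lies well apart from that in shFox2-2. Mdm2, the ubiquitin ligase gene that restrains p53, had 55.6 and 49.5 FPKM in the knockdowns, against 36.1 and 38.1 FPKM in the controls. Srsf7, an SR protein gene with 3 regions, had 136 and 122 FPKM in the knockdowns, against 100 and 97.9 FPKM in the controls. The other genes of the 10 with the largest log2 fold change were Sar1a, Limk2, Tsn, Calu, Rnf114 and Mapk14, at 0.37 to 0.47 on the log2 scale and with 2 to 13 regions. All of these had limma adjusted p-values of 0.978. After centring, Tsn, Calu and Rnf114 were no longer separated. Wdr35, Rbpj, Limk2, Tsn, Rnf114 and Mapk14 lacked an OK status in some hairpin.

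Among the separated genes with lower mRNA, Itga3, an integrin subunit gene, had 15.0 and 11.9 FPKM in shFox2-1 and shFox2-2, against 24.4 and 26.2 FPKM in shLuc and shGFP. It had 1 cluster, with a coverage of 38413 and a fold of 6.73. Xkr5 had 2.30 and 2.23 FPKM in the knockdowns, against 4.42 and 4.81 FPKM in the controls, and had 2 regions. Pls3, an actin-bundling protein gene, Ptms, Tenm3, Slc1a5 (a glutamine transporter gene), Map1b (a microtubule-binding protein gene), Scd1 (a stearoyl-CoA desaturase gene) and Myh10 (a non-muscle myosin gene) lay between -0.60 and -0.31 on the log2 scale. Their limma adjusted p-values were 0.978, and that of Itga3 was 0.933. After centring, Tenm3, Slc1a5, Scd1 and Myh10 were no longer separated, and Rbfox2 lacked an OK status in some hairpin. Tenm3 had 13 regions, and the others of these had 1 to 7. Rbfox2 is the only one of the 10 with more than 13 regions.

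**Figure D5:**
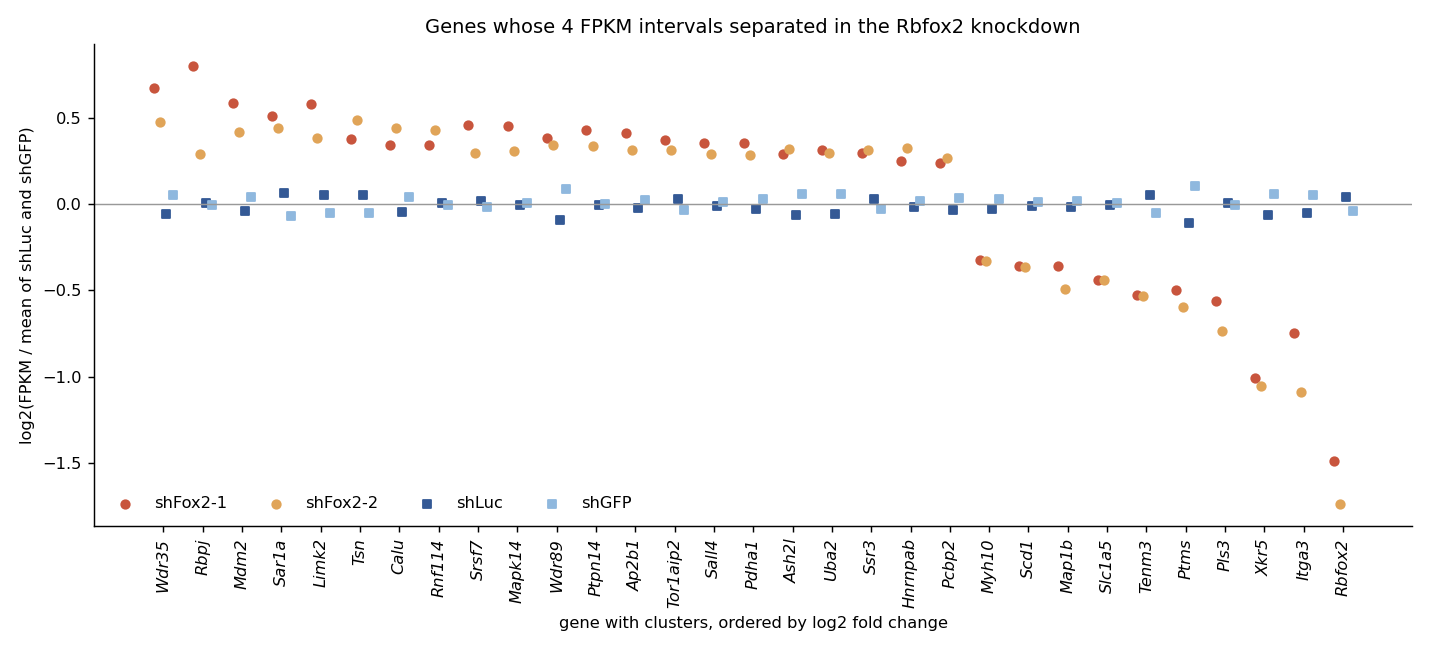
Log2 of FPKM over the mean of shLuc and shGFP (y axis) for the 31 bound genes whose intervals separated, ordered by log2 fold change (x axis). Circles are the knockdown hairpins and squares the control hairpins. Both circles lie on the same side of the squares in every gene, and Rbfox2 lies lowest.

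The genes that lead by regions or by coverage were, but for Rbpj and Rbfox2 itself, not separated in the knockdown. Exoc4 had 14.6 and 10.8 FPKM in shFox2-1 and shFox2-2, against 12.01 and 12.8 FPKM in shLuc and shGFP. Smyd3 had 3.55 and 3.87 FPKM in the knockdowns, against 3.72 and 4.47 FPKM in the controls. Enah had 166 and 150 FPKM in the knockdowns, against 143 and 146 FPKM in the controls, and the intervals overlapped. Dgcr8 had 29.7 and 24.5 FPKM in the knockdowns, against 21.3 and 21.7 FPKM in the controls, a log2 difference of 0.31 with a standard error of 0.14 and a limma adjusted p of 0.978. Its interval in shFox2-2, 21.4 to 27.6 FPKM, overlapped those of both controls. Magi1 had a failed status for shFox2-1 and shLuc and was not tested.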

How the data were processed

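Expression was deposited as FPKM per gene and hairpin with bounds and a status, per the file headers, in a Cuffdiff layout that pools the libraries of a hairpin. The submitters' processing notes name TopHat2 2.0, Cufflinks 2.1.1 and the build mm9. Clusters were deposited with coverage (a signal), fold over the untagged library and q-value per cluster, per the file headers, already filtered by the authors. The aligner and cluster caller are not given in the sources used here. Clusters were grouped by the gene ID in their name, kept when wholly inside the table locus of that gene, and merged where they overlapped or touched on a strand. Locus coordinates are as the table gives them.

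Of 7740 gene IDs, 6984 were kept. In 251 every cluster lay outside the locus, 16 only overlapped it, 352 had a symbol not found in the table and 137 had no symbol. The 6984 genes correspond to 6971 table entries. Symbols came from the reference gene tables. Coverage was summed over clusters, and density was taken per kb of locus and per mean FPKM of shLuc and shGFP. The knockdown was tested in R 4.3.3 by limma 3.58.1, trend option on, using log2(FPKM + 1), a scale that understates changes of low genes, 2 against 2 hairpins, with Benjamini-Hochberg adjustment over 20281 entries, tested on simulated data. Entries with a failed status or 0 FPKM everywhere, 98 of the bound genes' entries, were left out. The genes and lists were chosen with earlier results of these data known. Named are the top 10 by regions, coverage, median fold (5 or more clusters), regions per kb (3 or more regions) and regions per FPKM (also 5 FPKM or more), the top 3 of each list, up to 10 separated genes each way, and Rbfox2. A few genes that this rule selects are not reported here. Intervals on shares cover counting error only, and PCR copies were not shown to be independent molecules.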

Additional observations from a re-analysis of the deposited data

Results flagged for a closer look

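Clusters assigned to microRNA genes were in the list but outside the per-gene comparison, since these genes have no entry in the expression table. There were 19 such gene IDs with 1 cluster each, a signal in data that the comparison does not use. Their coverage was between 149 and 367 with a median of 181, at the low end of the list, and 4 of the 19 had no untagged coverage. Over the whole list 44.9% of clusters had none. Among clusters inside gene loci it was 73.4% at a coverage under 200 and 64% at 200 to 300, so the microRNA clusters lacked untagged coverage less often. The finite folds ran between 1.33 and 6.22. On chromosome 12 lay 6 of the 19, all in 1 stretch (mm9, 110810190 to 110973185), and the share of all hairpins found there was not computed. All 19 had a hairpin in RefSeq. The RBFOX core motif GCAUG, searched on the hairpin strand alone, was present in 2 of the 19 (10.53%), Mir221 and Mir350, and in 76 of all 1005 mouse hairpins of the table (7.56%). The 2 hairpins are shown with GCAUG in capitals because they are the ones that hold it.
Mir221: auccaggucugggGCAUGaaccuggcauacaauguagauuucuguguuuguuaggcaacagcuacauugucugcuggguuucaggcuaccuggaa
Mir350: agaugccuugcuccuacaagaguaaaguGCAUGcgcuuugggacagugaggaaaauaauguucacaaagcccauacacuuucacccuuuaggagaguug
The cluster of Mir221 had a coverage of 225 and a fold of 2.01, and that of Mir350 a coverage of 156 and a fold of 1.39. A match is a description of the sequence and not a binding site.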

How the results depend on the processing

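The number of genes with clusters, the median regions per gene, the median summed coverage and the median density stayed within 1.5 times under every alternative run. A fold of at least 2 gave 6626 genes, a fold of at least 5 gave 6014 and a q-value of at most 0.001 gave 6906. A coverage minimum of 10 removed nothing. The share of genes with infinite median fold was 63.1% at a fold of at least 2, 82.1% at a fold of at least 5 and 56.5% at a q-value of at most 0.001, and the share of regions in the top 1% of genes was 8.48% and 7.70% at the 2 fold limits. The top 10 by regions shared 9, 6 and 9 genes with the reported 10 at those 3 settings. Of 46 named genes, the region number moved by over 1.5 times in 18 at a fold of at least 5, in 2 at a fold of at least 2 and in 4 with merging within 50 bases. At 5 control FPKM or more the background share was 61.4% and that of the microRNA pathway 100%, and at a fold of at least 2 the background was 51.0%. Over all tested genes the correlation of regions with length was 0.49 and with FPKM 0.17, and at a fold of at least 2 that of median fold with FPKM was -0.20. A restriction to genes with a locus of their own, chosen after seeing the data, left 5912 genes. Over 5391 of these at 1 control FPKM or more, the correlation of regions with length was 0.56.

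In limma, 1 bound gene, Rbfox2, was called with entries below 1 FPKM left out and with centred hairpins, and none with a pseudocount of 0.1. The median log2 fold change of bound genes was 0.0211 after centring, and between -0.0915 and 0.0966 with a hairpin left out. Separated genes numbered 28 higher and 6 lower after centring, 12 higher and 9 lower with status OK in every hairpin, and 28 to 518 higher and 24 to 203 lower with a hairpin left out, which drops a condition and can only add genes. Before centring, the median entry of shFox2-2 lay at -0.10 from the mean of the hairpins, the shift of largest size. None of the 20 named separated genes changed sign. They were chosen for intervals that do not overlap, so another pseudocount, an FPKM minimum or a hairpin left out cannot reverse them. Only centring could have done so. Exoc4, at 0.02, is 0.22 in shFox2-1 alone and -0.18 in shFox2-2 alone. The cause of the other changes was not tested. No paired analysis was possible because the table pools the 2 libraries of a hairpin. The search for the motif in clusters was not run, since it needs the genome sequence. Depth is unknown for both assays, so counting error on coverage and FPKM cannot be given.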

Other observations

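The share of genes with an infinite median fold differed between the lists, which also differ in coverage and mRNA level. It was 73.7% in the 19 respiratory chain genes with clusters, 60.0% in the 10 ankyrin and channel genes and 53.8% in the 13 microRNA pathway genes. It was 15.6% in the 32 ribosomal protein genes with clusters, where the median fold had a median of 2.91. Of the 10 SR protein genes with clusters 1 had an infinite median fold, and the median there was 2.16. Over all matched genes with clusters it was 53.5%. Atp5c1 had no untagged coverage under 3 of its 6 clusters and Ndufs1 under 2 of its 3, while Tra2a had untagged coverage under all of its 9 and a median fold of 3.48.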
